A study of Mus musculus with 18 samples.

Results

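The genes described are 10 of fatty acid synthesis and of its transcriptional control, chosen by name from the 24035 genes counted by symbol: the enzymes Acly, Acaca, Fasn, Elovl6, Scd1 and Scd2, the transcription factor genes Srebf1 and Srebf2, and Scap and Insig1, whose products control the processing of these factors. They were followed in the mouse fibroblast line NIH3T3 by ribosome profiling, which sequences the mRNA fragments that ribosomes protect from RNase I (RPF), and by sequencing of heat-fragmented mRNA. There were 3 groups, with 3 libraries per group and assay and 18 in all: WT cells treated for 3 h with 200 nM Torin1, which blocks the ATP site of the mTOR kinase; cells whose Mtor gene was edited with CRISPR to carry G4448A in the coding sequence, which encodes C1483Y, and which received vehicle; and WT cells that received vehicle. Per the labels, the Torin1 and WT groups thus differ in the drug and carry no edited allele, and the C1483Y group differs from WT in the edit. The labels name 1 edited line and do not say whether it is a single clone, nor do they say whether each replicate was a culture of its own. The p-values therefore reflect only how much these libraries varied, and that variation may be technical.

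Fatty acids are built in the cytosol from citrate. ATP citrate lyase (Acly) splits citrate to acetyl-CoA, acetyl-CoA carboxylase (Acaca) makes malonyl-CoA, and fatty acid synthase (Fasn) joins these units into palmitate, which Elovl6 elongates to stearate and the stearoyl-CoA desaturases Scd1 and Scd2 convert to monounsaturated fatty acids. Srebf1 and Srebf2 encode the membrane-bound Srebp factors, which Scap escorts to the Golgi for cleavage and Insig1 holds back in the endoplasmic reticulum. The cleaved factors enter the nucleus and drive lipogenic and cholesterol genes. In many cell types mTOR complex 1 is known to promote Srebp activity, and lipogenic enzymes are among the best known outputs of that pathway.

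Promoter sequence was read for the genes with an entry in the RefSeq promoter table of build GRCm38.p6, which held 8 of the 10 genes, all but Scd1 and Scd2, with 11 annotated starts. Windows were the 250 bases before each start, and were searched on both strands. The Srebp motif TCACNCCAC was found in 0 of the 11 windows, against 1.05% of the 32851 windows of all genes. The shorter string ATCACCC, chosen after the promoters had been read, was found in the windows of Fasn and Srebf2, against 2.28% of all windows. The E-box CACGTG, a sequence that Srebf1 products and other basic helix-loop-helix factors can bind, was found in those of Insig1 and Scap, against 6.02% of all windows. The NF-Y box CCAAT was found in 5 of the 11 windows (33.8% of all), and the Sp1 box GGGCGG in 6 (32.7% of all). None of these strings overlapped another except for a pair of CCAAT matches on opposite strands in Fasn. The 200 bases before the start are shown for the pair of genes with ATCACCC and for Insig1 with its E-box, because Fasn, Srebf2 and Insig1 had lower RPF levels in every Torin1 library than in any WT library. In the first pair of lines capitals mark ATCACCC and CCAAT, in either orientation, and in the last line they mark CACGTG. Fasn lies at chr11:120824548-120824747 on the minus strand, Srebf2 at chr15:82147069-82147268 on the plus strand, and Insig1 at chr5:28071212-28071411 on the plus strand.
Fasn: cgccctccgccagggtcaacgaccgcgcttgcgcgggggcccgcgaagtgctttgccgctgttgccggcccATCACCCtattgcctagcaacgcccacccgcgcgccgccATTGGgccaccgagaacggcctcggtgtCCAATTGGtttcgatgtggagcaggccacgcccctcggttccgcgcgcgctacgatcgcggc
Srebf2: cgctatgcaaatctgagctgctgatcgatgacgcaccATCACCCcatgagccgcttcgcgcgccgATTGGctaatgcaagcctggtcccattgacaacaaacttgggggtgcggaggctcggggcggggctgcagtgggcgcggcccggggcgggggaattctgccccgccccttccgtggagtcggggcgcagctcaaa
Insig1: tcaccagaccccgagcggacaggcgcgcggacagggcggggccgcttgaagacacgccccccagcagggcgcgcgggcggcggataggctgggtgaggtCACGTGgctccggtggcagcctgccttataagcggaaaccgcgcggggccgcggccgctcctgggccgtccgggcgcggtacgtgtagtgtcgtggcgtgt
The Fasn string ATCACCC began 129 bases before the start and that of Srebf2 163 bases before it, while CACGTG began 101 bases before the start in Insig1 and 40 in Scap. A start of C followed by 4 bases of C or T, the form of the 5′ terminal oligopyrimidine (TOP) mRNAs that are the best known translational targets of mTOR, was found at 0 of the 11 starts, against 2.51% of all starts. A match describes these letters only and says nothing of binding.

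Gene reads per library ran from 4.68 to 42.82 M in RPF and from 4.42 to 94.3 M in mRNA, which set the precision of what follows. The fibroblast label was checked with 10 marker genes, whose summed reads were 14699 to 25530 ppm of gene reads in Torin1 RPF libraries and 20817 to 31356 ppm in WT. In the RPF libraries labelled C1483Y they were 1912 to 3306 ppm, with Lum at 0, and reads of 335 pseudogenes summed to 4106 to 8261 ppm, against 533 to 961 ppm in WT. The 8 neuron and glia markers summed to 1201 to 1584 ppm in these libraries and to 16.6 to 23.0 ppm in WT, a sum made almost wholly of Tubb3, Uchl1 and Kif1a. Of the rest of that list, Rbfox3 and Snap25 were at 0 in every RPF library labelled C1483Y, and Map2 had 1, 0 and 0 reads there and 89, 68 and 0 in WT. The 7 epithelial markers summed to 17.7 to 124.6 ppm in RPF libraries labelled C1483Y and to 0.0 ppm in WT. Among them Krt18 had 173, 584 and 123 reads under that label, while Krt19 and Esrp1 were at 0. In mRNA, replicates 1 and 3 of C1483Y had 915 and 1611 ppm of fibroblast markers, 1389 and 886 ppm of neuron and glia markers and 7363 and 7025 ppm of pseudogenes, against 11788 to 13187, 0.0212 to 0.071 and 1304 to 2124 ppm in WT. Replicate 2 did not follow them in these sums, with 15853 ppm of fibroblast markers, 0.118 ppm of neuron and glia markers and 1040 ppm of pseudogenes. The 3 RPF libraries labelled C1483Y and mRNA replicates 1 and 3 therefore stood apart from the other libraries in these sums, and values for this label are given separately and last. In mRNA, Torin1 replicate 3 and the library labelled C1483Y replicate 2 had almost the same counts: a chi-square per degree of freedom of 13.0, against 732 to 8250 for the other pairs of mRNA libraries. For the 10 genes, reads in the first were 0.841 to 0.952 times those in the second, against 0.907 for all gene reads. The chi-square is above sampling noise, which does not show that these were separate samples, and that was not tested. Each was kept as a library, so the mRNA and TE tests count them as independent. Irs4, chosen after its values were seen, had 16208 mRNA reads in Torin1 replicate 3 and 0 and 4 in Torin1 replicates 1 and 2. It had 1489, 17199 and 6517 mRNA reads in libraries labelled C1483Y and 0, 9 and 2 in WT. Cdkn2a, chosen in the same way, had 0 reads in every mRNA library. In RPF, Cdkn2a had 1447, 467 and 798 reads in libraries labelled C1483Y, 4, 0 and 0 in WT and 0 in each Torin1 library. Irs4 had 1485, 702 and 1619 RPF reads under that label, 2, 2 and 8 in WT and 4, 4 and 68 in Torin1. Counts of members called, signs and shares in mRNA and TE are also given without both of the almost identical libraries where they changed. Adipocyte markers were at 0 in 8 of 10 genes in Torin1 RPF libraries and in 7 of 10 in WT, and summed to at most 4.8 ppm in Torin1 and 8.51 ppm in WT.

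In RPF, the question was whether ribosome-bound mRNA of the lipogenic genes differed after Torin1. Levels are CPM, read counts scaled to library size with TMM factors, which are not corrected for gene length, so they are compared between libraries and not between genes. The 6 enzymes together summed to 1759, 1805 and 1907 CPM in Torin1 replicates 1, 2 and 3, and to 2642, 2927 and 2704 CPM in WT. Each Torin1 sum lay below each WT sum. In RPF, each SE comes from an edgeR fit of all 9 libraries, so the spread of those labelled C1483Y enters it. Fasn had the log2 fold change farthest from 0, and Srebf1 was the 1 gene of the 10 with a higher level in every Torin1 library than in any WT library.

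**Figure D1:**
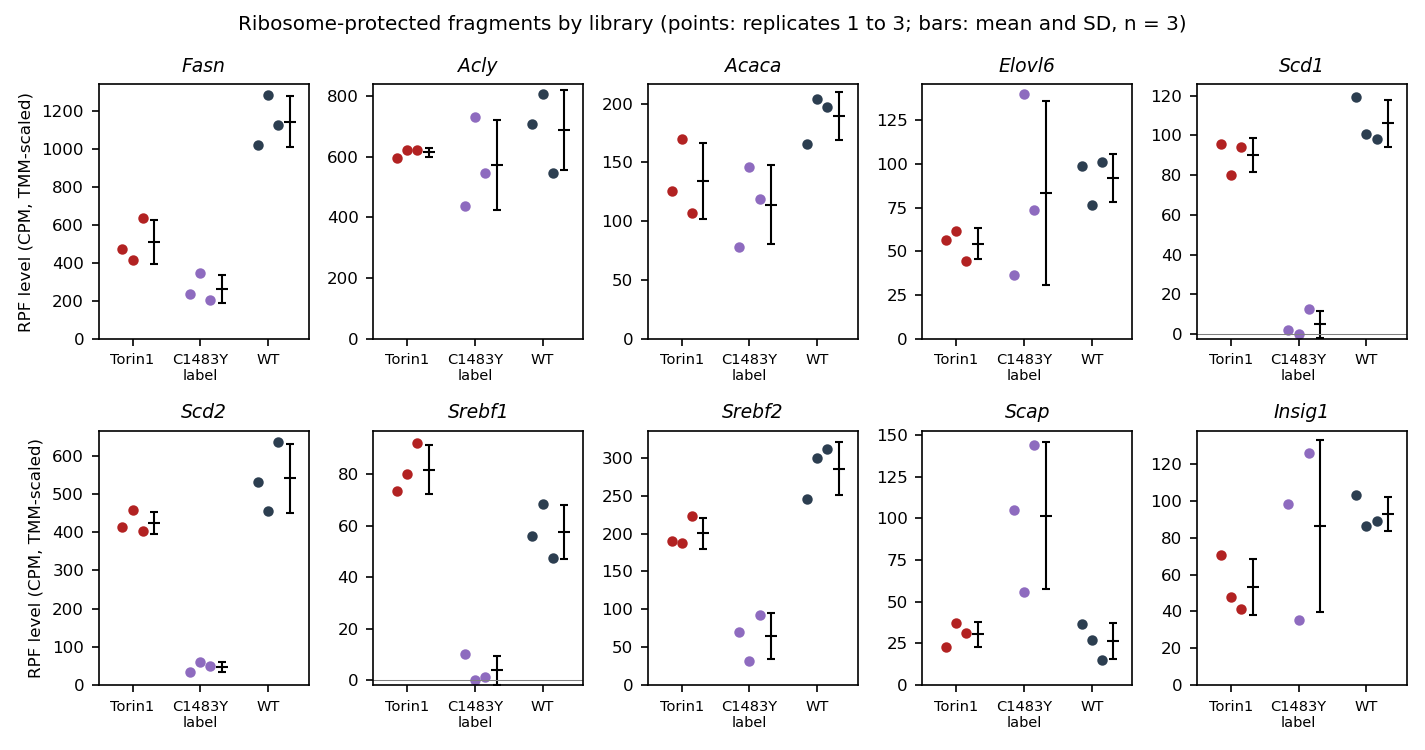
RPF level of the 10 genes in CPM after TMM scaling (vertical axes, linear), with 1 point per library for Torin1, the C1483Y label and WT from left to right, and the mean with its SD (n = 3) beside each group. Fasn sat between 415 and 636 CPM in Torin1 and between 1019 and 1283 CPM in WT, and Scd1 and Srebf1 were close to 0 in libraries labelled C1483Y.

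Fasn, the synthase itself, had 471, 415 and 636 CPM in Torin1 libraries and 1019, 1283 and 1126 CPM in WT libraries. The groups did not overlap, and the highest Torin1 library was well short of the lowest WT library. The means were 507 ± 115 CPM in Torin1 and 1142 ± 133 CPM in WT (SD, n = 3 each). The log2 fold change was -1.17 ± 0.28 (SE) and did not pass the threshold of 0.05 after Benjamini-Hochberg adjustment over all genes tested (edgeR's quasi-likelihood test, adjusted p = 0.147, unadjusted p = 0.00146). It did pass with DESeq2 (log2 fold change -1.11, adjusted p = 0.0427), with limma-voom (-1.21, adjusted p = 0.000836) and with edgeR on the Torin1 and WT libraries alone (-1.14, adjusted p = 0.0288). Over the 13 alternatives its adjusted p ran from 0.000836 to 0.941, with the direction below 0 in 13 of 13. Of all 11085 genes tested, 8.62% had a lower log2 fold change than Fasn.

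Of the enzymes upstream of Fasn, Acly had 597, 621 and 622 CPM in Torin1 libraries and 706, 807 and 546 CPM in WT libraries. The groups overlapped through WT replicate 3, and the log2 fold change was -0.16 ± 0.26. Acaca had 126, 170 and 107 CPM in Torin1 libraries and 166, 204 and 198 CPM in WT libraries. Torin1 replicate 2 overlapped WT replicate 1, and the log2 fold change was -0.50 ± 0.35. The ratio of Fasn reads to Acly reads, formed after the values were seen and so given with no test, needs no scaling between libraries. It was 0.789, 0.669 and 1.02 in Torin1 libraries and 1.44, 1.59 and 2.06 in WT libraries.

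Among the enzymes downstream, the elongase gene Elovl6 had 56.6, 61.7 and 44.4 CPM in Torin1 libraries and 98.9, 76.4 and 101 CPM in WT libraries. These groups did not overlap, and the log2 fold change was -0.76 ± 0.50. The desaturase gene Scd1 had 95.6, 80.1 and 94.4 CPM in Torin1 libraries and 120, 100.5 and 98.3 CPM in WT libraries. The gap between its groups was narrow, and the log2 fold change was -0.24 ± 0.97. The coefficient of variation (SD over mean) of its CPM was 9.57% in Torin1, 11.0% in WT and 142.1% in libraries labelled C1483Y. The last of these enter the SE as well. Its paralog Scd2 had 413, 457 and 403 CPM in Torin1 libraries and 532, 456.0 and 635 CPM in WT libraries. Here Torin1 replicate 2 and WT replicate 2 met, and the log2 fold change was -0.35 ± 0.28. Scd1 and Scd2 lie close together on chromosome 19 and are similar in sequence, and reads that aligned to more than 1 place were not counted, so the split between them is uncertain. Scd1 made up 18.8%, 14.9% and 19.0% of the reads of the pair in Torin1 libraries and 18.3%, 18.1% and 13.4% in WT libraries. The mean share was 17.6% ± 2.29 in Torin1 and 16.6% ± 2.77 in WT (SD, n = 3 each), a difference of 0.961 percentage points (two-sided exact permutation test, p = 0.5, where the smallest p possible is 0.1). Leaving out 1 library at a time moved this difference between -0.634 and 2.28 points.

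Of the factor genes, Srebf1 had 73.3, 80.0 and 92.1 CPM in Torin1 libraries and 56.1, 68.5 and 47.6 CPM in WT libraries. Each Torin1 library was above each WT library, and the log2 fold change was 0.51 ± 1.02. The coefficient of variation of its CPM was 11.6% in Torin1, 18.3% in WT and 144.4% in libraries labelled C1483Y. That SE thus does not describe the spread of the Torin1 and WT libraries alone. Srebf2 had 190, 187 and 223 CPM in Torin1 libraries and 246, 299 and 312 CPM in WT libraries. Here each Torin1 library was below each WT library, and the log2 fold change was -0.51 ± 0.38. Within a library, Srebf1 made up 27.8% of the Srebf1 plus Srebf2 reads in Torin1 replicate 1 (95% Wilson interval 26.5 to 29.2), 30.0% in replicate 2 (28.9 to 31.1) and 29.2% in replicate 3 (28.4 to 30.1). In WT it made up 18.6% (17.4 to 19.8), 18.6% (18.1 to 19.2) and 13.2% (12.3 to 14.2); these intervals cover counting error only, and PCR copies count as separate reads. The mean share was 29.0% ± 1.1 in Torin1 and 16.8% ± 3.11 in WT (SD, n = 3 each). The difference of 12.2 percentage points had p = 0.1 in a two-sided exact permutation test, the smallest p that 3 libraries against 3 allow, and lay between 10.4 and 13.1 points with 1 library left out. In mRNA there were 3, 2775 and 12040 Srebf1 reads beside 1, 5520 and 3604 Srebf2 reads in Torin1 libraries, and 692, 13847 and 5930 Srebf1 reads beside 1927, 3 and 1981 Srebf2 reads in WT libraries. The share in Torin1 replicate 1 thus rested on 4 reads in all (95% Wilson interval 30.1 to 95.4), and the shares of the groups overlapped. The mean share was 61.8% ± 24.6 in Torin1 and 67.1% ± 37.4 in WT (SD, n = 3 each). The difference was -5.31 points with all libraries (exact permutation test, p = 1) and -12.9 points without Torin1 replicate 3, 1 of the almost identical pair (exact permutation test, p = 0.8).

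Scap, the escort of the Srebp precursors, had 22.6, 37.4 and 31.1 CPM in Torin1 libraries and 36.6, 27.2 and 15.1 CPM in WT libraries. The groups overlapped, and the log2 fold change of 0.21 ± 0.55 became -0.07 without WT replicate 3, whose level was the lowest. Insig1, the retention factor and itself a well known Srebp target, had 70.7, 48.1 and 41.5 CPM in Torin1 libraries and 103, 86.4 and 89.3 CPM in WT libraries. Its groups did not overlap, and the log2 fold change was -0.80 ± 0.50.

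**Figure D2:**
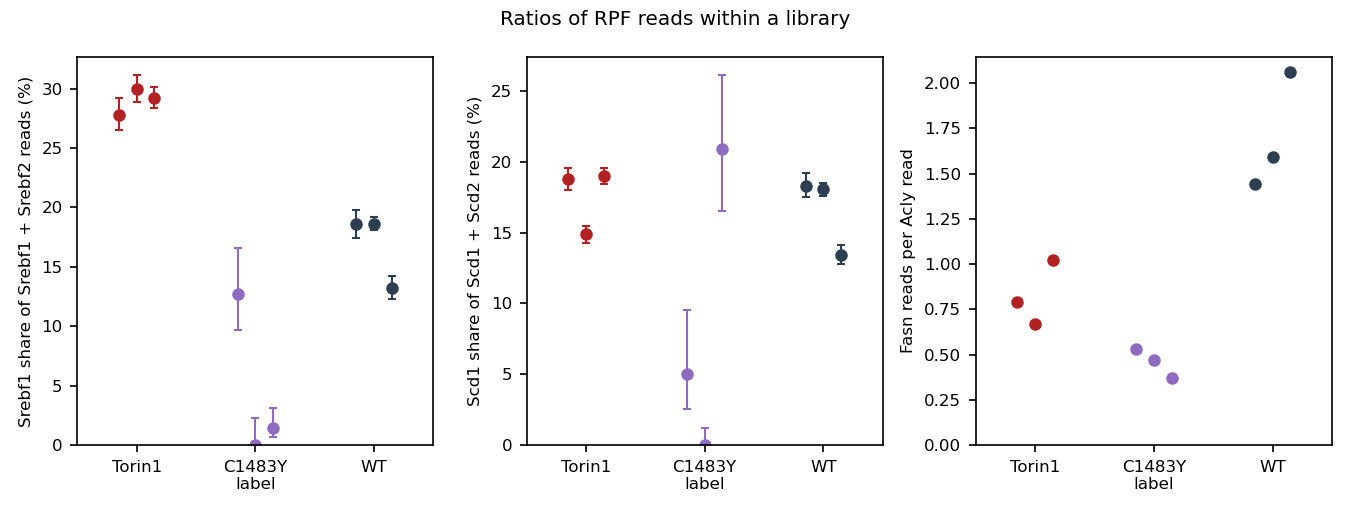
Ratios within each RPF library, for Torin1, the C1483Y label and WT from left to right: the Srebf1 share of Srebf1 plus Srebf2 reads and the Scd1 share of Scd1 plus Scd2 reads (percent, points with 95% Wilson intervals), and Fasn reads per Acly read (points, no interval). The Srebf1 share was 27.8% to 30.0% in Torin1 and 13.2% to 18.6% in WT, while the Scd1 shares of these groups overlapped.

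Of the 10 genes, 0 passed in RPF (edgeR's quasi-likelihood test), against 0.749% of all 11085 genes, of which 82 were lower (0.74%) and 1 higher (0.00902%). At an unadjusted p under 0.05 there was 1 (Fasn), against 4.15% of all genes, and DESeq2 and limma-voom each called 1, Fasn again. Over all genes, DESeq2 called 14 higher and 146 lower, and limma-voom 19 higher and 187 lower. The adjusted p was 0.147 for Fasn and 1 for the other 9 genes. The log2 fold change was below 0 in 8 of 10 genes, and in 6 of 6 enzymes, with a median of -0.42, against a median of 0.03 and 47.4% below 0 over all genes tested. The groups did not overlap with Torin1 lower in 5 genes (Fasn, Elovl6, Scd1, Srebf2 and Insig1), against 10.7% of all genes, and with Torin1 higher in 1 (Srebf1), against 8.48% of all genes. The sign was the same under 13 of 13 alternatives for each gene but Scap, with 12 of 13. In bulk samples, fewer cells of a type and less RNA per cell cannot be told apart.

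**Figure D3:**
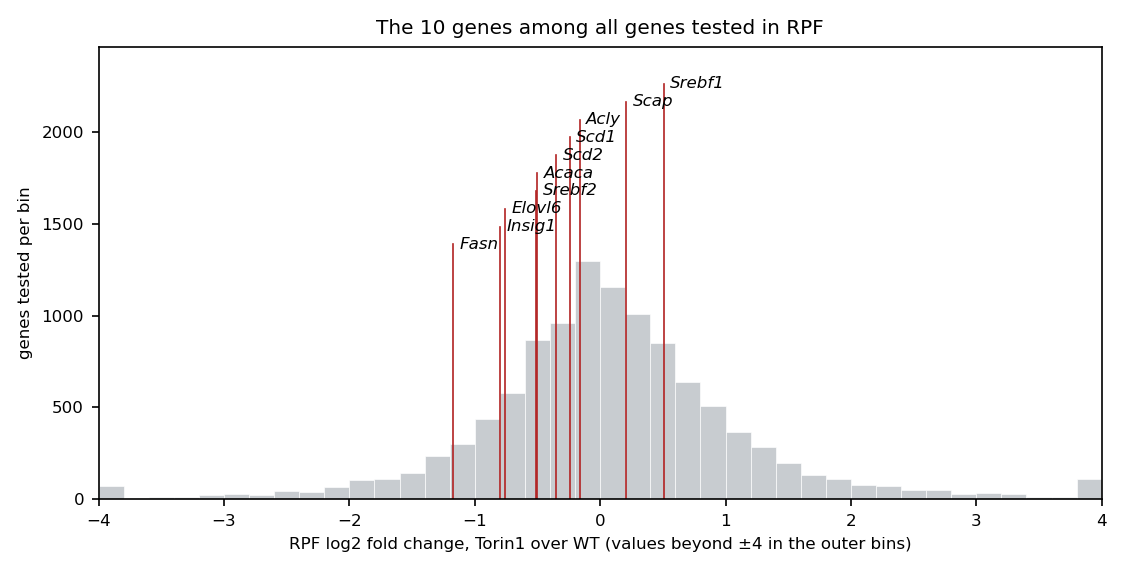
Number of genes tested in RPF (vertical axis) by log2 fold change of Torin1 over WT (horizontal axis, bins of 0.2), with a line at the value of each of the 10 genes. Of the 10, 8 lie below 0, with Fasn farthest left at -1.17 and Srebf1 farthest right at 0.51, all of them inside the spread of all genes.

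By a rule of likeness, the root mean square difference of log2 CPM centred over the 6 Torin1 and WT RPF libraries, the 5 genes whose pattern was nearest to Fasn among 7793 genes with a mean of at least 10 CPM were Aprt (0.126), Aldoa (0.147), Ago3 (0.159), Phgdh (0.163) and Ptgis (0.173). Aprt, an adenine salvage enzyme, had 126, 95.7 and 164 CPM in Torin1 libraries and 256, 264 and 278 CPM in WT libraries. Aldoa, a glycolytic aldolase, had 727, 610.1 and 728 CPM in Torin1 libraries and 1415, 1588 and 1592 CPM in WT libraries. The nearest of the other 9 genes was Srebf2, in place 288 with a difference of 0.363, while Acly was in place 1626 and Srebf1 in place 4503.

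Neighbouring pathways were read from lists of genes. Their counts after Torin1 are read against all 11085 genes tested in RPF. Of those, 0.749% passed with edgeR, 4.15% had an unadjusted p under 0.05 and 47.4% were below 0. DESeq2 called 14 of all genes higher and 146 lower, and limma-voom 19 higher and 187 lower. Of 26 other fatty acid synthesis and elongation genes tested, 0 passed in RPF after Torin1 with edgeR's quasi-likelihood test; 1 had an unadjusted p under 0.05, DESeq2 called 0 and limma-voom called 1 (Fads3). Of these, 21 were below 0, with a median of -0.39. Fads3, of the fatty acid desaturase cluster, had 61.2, 29.0 and 29.5 CPM in Torin1 libraries and 120, 132 and 166 CPM in WT libraries, and a log2 fold change of -1.80 ± 0.52 (adjusted p = 0.357 with edgeR). The next smallest p-values were those of the delta-5 desaturase gene Fads1 (-0.86 ± 0.44) and the very-long-chain elongase gene Elovl1 (-0.85 ± 0.43). Of 14 glycerolipid synthesis genes, 0 passed with edgeR; 1 had an unadjusted p under 0.05, and DESeq2 and limma-voom called 0. Their median was 0.27, and the 3 smallest p-values were those of the acyltransferase gene Agpat2, the choline kinase gene Chka (-1.24 ± 0.85) and Agpat6 (0.84 ± 0.58). Agpat2 had 17, 281 and 0 reads in Torin1 libraries and 2, 0 and 0 reads in WT libraries, a ratio of 152 per gene read with a 95% counting interval of 41.7 to 1260.1 that comes almost wholly from Torin1 replicate 2.

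Of 31 other genes of Srebp processing and control, 0 passed in RPF after Torin1 with edgeR, and DESeq2 and limma-voom called 0. At an unadjusted p under 0.05 there were 3, 1 higher and 2 lower, against 4.15% of all genes. The median was -0.15. The COPII GTPase gene Sar1a had 59.6, 27.3 and 56.2 CPM in Torin1 libraries and 97.8, 89.6 and 139 CPM in WT libraries (log2 fold change -1.19 ± 0.40). The deacetylase gene Sirt1 had a log2 fold change of 1.69 ± 0.68. Of 22 cholesterol synthesis and uptake genes, which Srebf2 products are known to drive, 0 passed with edgeR; 6 had an unadjusted p under 0.05, all lower, DESeq2 called 0 and limma-voom called 3, all lower, with Idi1 and Fdps among them. All 22 were below 0, against 47.4% of all genes, with a median of -0.84. In 18 the groups did not overlap with Torin1 lower, against 10.7% of all genes. Fdps, the farnesyl diphosphate synthase gene, had 560, 323 and 344 CPM in Torin1 libraries and 938, 717 and 933 CPM in WT libraries (log2 fold change -1.08 ± 0.33, adjusted p = 0.466 with edgeR). Dhcr7 had a log2 fold change of -1.06 ± 0.38 and Cyp51 of -0.73 ± 0.26.

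In mRNA, the question was whether the transcripts of the 10 genes differed after Torin1. The libraries varied far more than in RPF. Over the Torin1 and WT libraries, 7 of 60 gene values rested on fewer than 10 reads in mRNA, against 0 of 60 in RPF, where the lowest value was 210 reads. Acaca had 3178, 13904 and 6199 reads in Torin1 libraries and 2862, 8 and 1555 reads in WT libraries. Scd1 had 0, 5998 and 6208 reads in Torin1 libraries and 4720, 3 and 10149 reads in WT libraries, and Srebf2 had 1, 5520 and 3604 reads in Torin1 libraries and 1927, 3 and 1981 reads in WT libraries. Scd1 and Srebf2 thus had almost no reads in 1 library of a group while the other two had plenty, in libraries of 12.06 to 94.3 M gene reads.

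**Figure D4:**
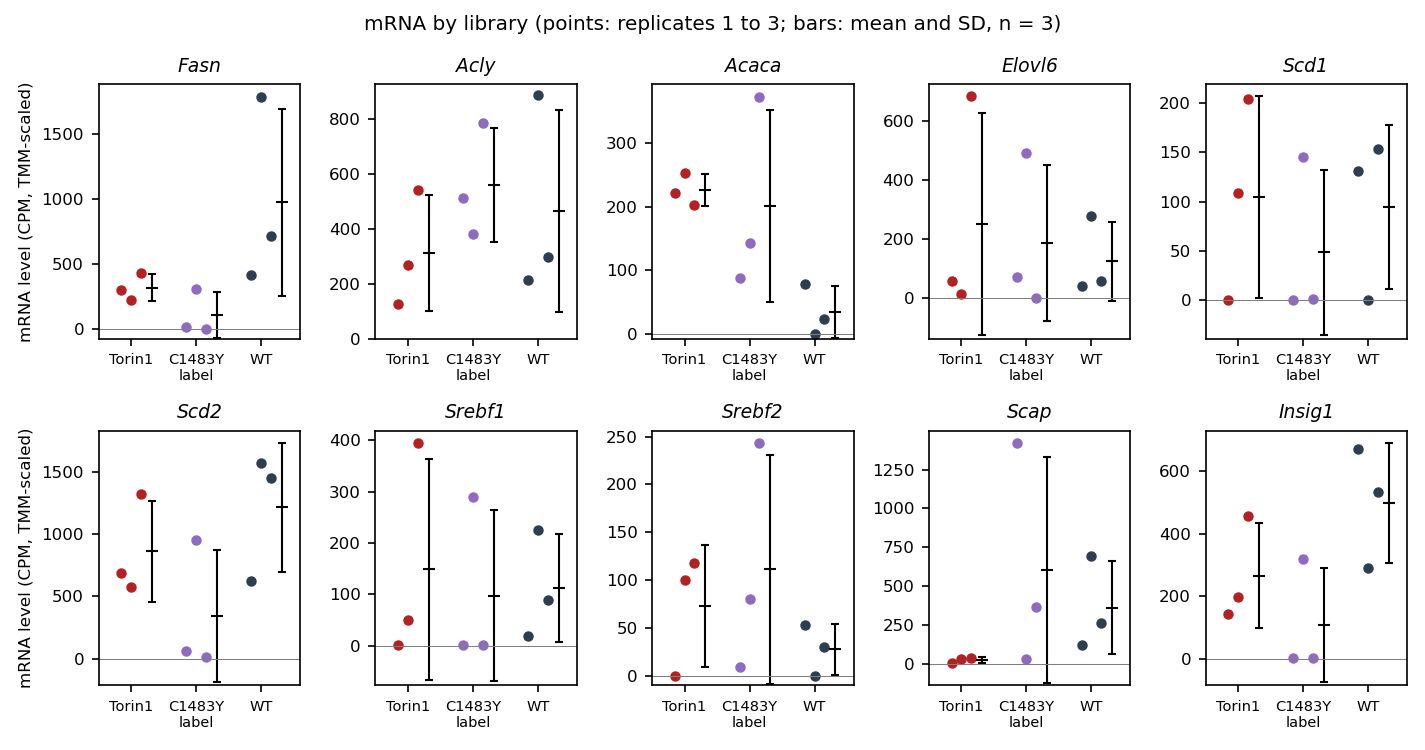
mRNA level of the 10 genes in CPM after TMM scaling (vertical axes, linear), with 1 point per library for Torin1, the C1483Y label and WT from left to right, and the mean with its SD (n = 3). The WT libraries ran from 416 to 1784 CPM for Fasn and from 0.131 to 79.3 CPM for Acaca.

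Acly mRNA had 125, 269 and 542 CPM in Torin1 libraries and 212, 888 and 298 CPM in WT libraries, and Scd2 mRNA had 685, 578 and 1325.5 CPM in Torin1 libraries and 621, 1573 and 1457 CPM in WT libraries. Both overlapped between the groups. Elovl6 mRNA had 59.7, 13.2 and 685 CPM in Torin1 libraries and 40.7, 279.5 and 57.5 CPM in WT libraries, and Srebf1 mRNA had 0.21, 50.5 and 395 CPM in Torin1 libraries and 19.2, 226 and 89.3 CPM in WT libraries. In each, Torin1 replicate 3, 1 of the almost identical libraries, was the highest of the 6. Fasn mRNA had 297, 221 and 428 CPM in Torin1 libraries and 416, 1784 and 715 CPM in WT libraries. Torin1 replicate 3 just overlapped WT replicate 1, and the log2 fold change was -1.62 ± 1.38. Insig1 mRNA had 145, 198 and 456 CPM in Torin1 libraries and 668, 292 and 533 CPM in WT libraries, with a log2 fold change of -0.90 ± 1.65. Scap mRNA had 0.42, 27.9 and 34.6 CPM in Torin1 libraries and 119, 696 and 263 CPM in WT libraries. Its groups did not overlap, and the log2 fold change of -4.10 ± 1.77 had an unadjusted p of 0.0205 (edgeR's quasi-likelihood test, adjusted p = 0.67). Acaca mRNA had 222, 253 and 204 CPM in Torin1 libraries and 79.3, 0.131 and 23.4 CPM in WT libraries. It was higher in each Torin1 library than in any WT library, with a log2 fold change of 2.72 ± 2.31. Scap was the 1 gene of 10 without overlap and lower after Torin1, against 4.42% of all genes, and Acaca the 1 without overlap and higher, against 5.39% of all genes.

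In mRNA 0 of 10 genes passed with edgeR, against 0.014% of the 7121 genes tested. At an unadjusted p under 0.05 there was 1 (Scap), against 7.12% of all genes, and DESeq2 and limma-voom called 0. Over all 7121 genes, DESeq2 called 321 higher and 178 lower, and limma-voom 9 higher and 7 lower. The log2 fold changes were below 0 in 5 and above 0 in 5, from -4.10 for Scap to 2.72 for Acaca, with a median of -0.18, against 0.02 over all genes tested. Scd1, Elovl6 and Srebf1, at 0.14, 1.00 and 0.41, turned below 0 without the pair of almost identical libraries (-0.77, -1.80 and -2.12), which left 8 genes below 0 and 2 above.

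Translational efficiency (TE), the RPF change of a gene relative to its mRNA change, was tested as an interaction over all 18 libraries. Of the 10 genes, 0 passed for Torin1 with edgeR, against 0.0283% of the 7072 genes tested. At an unadjusted p under 0.05 there was 1, Scap, against 11.1% of all genes, and DESeq2 and limma-voom called 0. Over all 7072 genes, DESeq2 called 199 higher and 346 lower, and limma-voom 0 higher and 21 lower. The log2 difference was 4.34 ± 1.92 for Scap (adjusted p = 0.332), the gene with the low Torin1 mRNA values above, and -3.19 ± 1.95 for Acaca, the gene with the low WT mRNA values. Fasn had 0.48 ± 1.40, Acly 0.44 ± 1.08 and Scd2 0.17 ± 1.33. Srebf2 had -1.88 ± 2.34, Elovl6 -1.74 ± 2.18, Scd1 -0.35 ± 3.14, Srebf1 0.13 ± 2.82 and Insig1 0.12 ± 1.85. For Fasn, Acly and Scd2 the values within 1 SE span a fall and a rise, so a change of Fasn in TE was not detectable, and the RPF value of Fasn was not separated from its mRNA value. Variation between libraries was wide, with a median biological coefficient of 0.90 for RPF counts, 2.19 for mRNA counts and 1.62 when both were modelled together. These medians come from fits that include the libraries labelled C1483Y, so they do not describe the Torin1 and WT libraries alone.

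**Figure D5:**
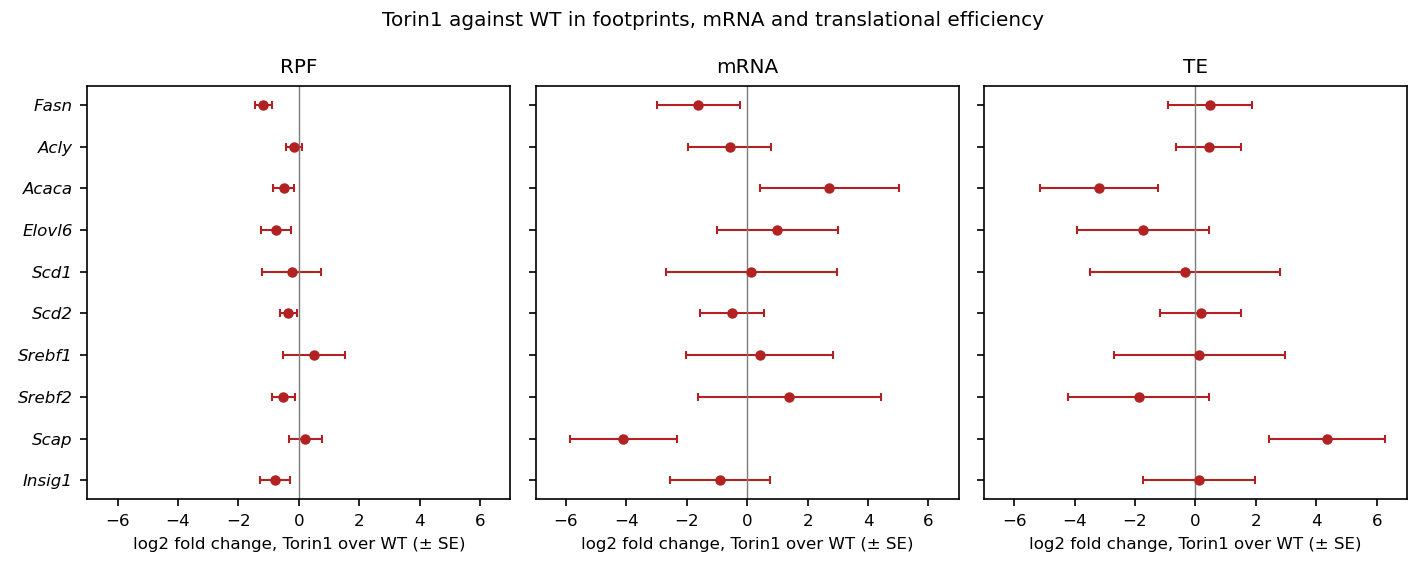
Log2 fold change of Torin1 over WT (horizontal axes, points with SE bars) for the 10 genes in RPF, mRNA and TE, from edgeR. The fits also held the libraries labelled C1483Y. The SE was 0.26 to 1.02 in RPF, 1.06 to 3.03 in mRNA and 1.08 to 3.14 in TE, and the mRNA and TE values of Scap and Acaca lie on opposite sides of 0.

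The libraries labelled C1483Y were compared with the same 3 WT libraries per assay, so the comparisons with Torin1 and with C1483Y share their controls. In RPF 6 of 10 genes passed (edgeR's quasi-likelihood test), 5 lower and 1 higher, against 10.7% lower and 7.91% higher of all 11085 genes, and 18.6% in either direction. Of the enzymes, Fasn had 232, 344 and 203 CPM in libraries labelled C1483Y and 1019, 1283 and 1126 CPM in WT, and it fell by 2.14 ± 0.29 on the log2 scale (edgeR, adjusted p = 0.00066). Scd2 had 34.7, 61.3 and 48.5 CPM in libraries labelled C1483Y and 532, 456.0 and 635 CPM in WT, and fell by 3.49 ± 0.31 (edgeR, adjusted p = 0.000107). Scd1 had 8, 0 and 57 reads in libraries labelled C1483Y and 1605, 4563 and 1370 reads in WT, and fell by 4.45 ± 1.14 (edgeR, adjusted p = 0.0191). All 3 lay far below WT in each library. Fasn reads per Acly read were 0.531, 0.471 and 0.372 in libraries labelled C1483Y and 1.44, 1.59 and 2.06 in WT. Acly, at -0.26 ± 0.26, and Elovl6, at -0.15 ± 0.50, overlapped WT. Acaca, at -0.73 ± 0.35 (edgeR, adjusted p = 0.179), did not overlap it, and passed without C1483Y replicate 2 (adjusted p = 0.0422).

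Of the regulators, Srebf2 had 70.6, 32.3 and 92.0 CPM in libraries labelled C1483Y and 246, 299 and 312 CPM in WT, and fell by 2.14 ± 0.39 (edgeR, adjusted p = 0.00361). Srebf1 had 45, 0 and 6 reads in libraries labelled C1483Y and 753, 3112 and 663 reads in WT, and fell by 3.90 ± 1.16 (edgeR, adjusted p = 0.0379). Scap had 105, 55.9 and 144 CPM in libraries labelled C1483Y and 36.6, 27.2 and 15.1 CPM in WT, and rose by 1.95 ± 0.57 (edgeR, adjusted p = 0.0355). Insig1 had 98.2, 35.2 and 126 CPM in libraries labelled C1483Y, on either side of the 103, 86.4 and 89.3 CPM in WT, with a log2 fold change of -0.10 ± 0.50. Fasn, Scd2 and Srebf2 passed in 13 of 13 alternatives and Scd1 in 12, but Srebf1 in 8 and Scap in 5. Within a library, Srebf1 made up 12.7%, 0.0% and 1.44% of the Srebf1 plus Srebf2 reads in the libraries labelled C1483Y, where these counts were 166 to 410 reads for Srebf2, against the WT shares of 13.2% to 18.6% above. With edgeR, Srebf1 missed the threshold without C1483Y replicate 3 (adjusted p = 0.0964) and without any 1 WT library (0.0643 to 0.0904), and Scap without C1483Y replicate 1 (0.0895) or 3 (0.12) and without any 1 WT library (0.0927 to 0.131). Groups did not overlap with C1483Y lower in 6 genes, against 27.4% of all genes, and with C1483Y higher in 1 (Scap), against 16.5%. The fibroblast marker, Tubb3, Uchl1, Kif1a, Krt18 and pseudogene values given above move with all of these differences, and their part in them was not tested.

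The neighbouring pathways held genes past the threshold on both sides of WT. Their counts are read against the 10.7% of all genes that were lower and the 7.91% that were higher in RPF at the edgeR threshold. Of 26 other fatty acid genes, 7 were lower and 1 higher. The 5 lower genes with the smallest p were Fads2, Fads3, Fads1, Acsl5 and Acsl4, at -2.24, -3.62, -2.55, -5.80 and -1.44 on the log2 scale, and the higher gene was the hydroxyacyl-CoA dehydratase gene Ptplad1, at 2.11. Acsl5, an acyl-CoA synthetase gene, had 0, 0 and 16 reads in libraries labelled C1483Y and 804, 3698 and 813 reads in WT. Of 14 glycerolipid genes, 1 was higher and 0 lower, counts no larger than those shares give. The higher gene was Agpat2, with 117, 367 and 188 reads in libraries labelled C1483Y and 2, 0 and 0 reads in WT, a ratio of 1422 per gene read with a 95% counting interval of 392 to 11770.0. Of 31 genes of Srebp processing and control, 5 were higher, namely Sirt1, Sar1b, Faf2, Sar1a and Mbtps2, the gene of the site-2 protease that releases Srebp factors, and 1 was lower (Sec24d, at -2.85), a call that limma-voom did not make. Mbtps2 had 107, 93.6 and 89.3 CPM in libraries labelled C1483Y and 22.8, 30.1 and 23.0 CPM in WT (log2 fold change 1.94). Each of these 5 higher genes missed the threshold with any 1 WT library left out (edgeR, adjusted p = 0.052 to 0.165), Sar1b and Mbtps2 also without C1483Y replicate 1, and Faf2 and Mbtps2 also without C1483Y replicate 3. Acsl4 missed it without WT replicate 1 or 2, Ptplad1 without WT replicate 1 or 3, and Agpat2 without WT replicate 2 or 3. Of 22 cholesterol genes 9 were lower, and Dhcr7, the gene of the last reductase of the pathway, was higher. The lower genes numbered 14 with DESeq2 and 13 with limma-voom, and each of these tools called 2 higher. Both tools also called more genes than edgeR among all 11085 tested. DESeq2 put 1951 of them below WT and 1361 above it, and for limma-voom these numbers were 1334 and 1086. Among the lower cholesterol genes with the smallest p in edgeR were Fdps, Msmo1, Hmgcs1 and Nsdhl, from -2.43 for Hmgcs1 to -4.45 for Msmo1. Dhcr7 had 468, 574 and 529 CPM in libraries labelled C1483Y and 49.6, 40.4 and 74.7 CPM in WT, and a log2 fold change of 3.25 ± 0.41 (edgeR, adjusted p = 0.00041).

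In mRNA 0 of 10 genes passed for C1483Y with edgeR, against 0.323% of the 7121 genes tested. At an unadjusted p under 0.05 there was 1 (Fasn), against 8.72% of all genes, and DESeq2 and limma-voom called 0. Over all 7121 genes, DESeq2 called 438 higher and 64 lower, and limma-voom 1 higher and 1 lower. Fasn was also the 1 gene without overlap and lower, against 9.49% of all genes, and Acaca the 1 without overlap and higher, against 3.23%. The log2 fold changes were below 0 in 5 and above 0 in 5, from -3.19 for Fasn to 2.56 for Acaca. Without the almost identical pair they were below 0 in 6 and above 0 in 4, from -7.41 for Insig1 to 2.68 for Acaca. Fasn mRNA had 33, 14380 and 11 reads in libraries labelled C1483Y and 15000, 109161 and 47490 reads in WT, and Scd2 mRNA had 182, 44845 and 49 reads in libraries labelled C1483Y and 22423, 96227 and 96738 reads in WT. In each, C1483Y replicate 2, the library almost identical to Torin1 replicate 3, stood apart from the other two, which had 58 and 72 reads of the collagen gene Col1a1 and 142 and 123 of the fibronectin gene Fn1, against 55341 and 111583 in replicate 2. Leaving out the pair leaves only those 2 libraries with few fibroblast marker reads for C1483Y, and the part of the markers in the values that follow was not tested. The log2 fold change of Fasn was -3.19 ± 1.47 with all libraries and -7.37 ± 1.73 without the almost identical pair (edgeR, adjusted p = 0.544 and 0.00976), and that of Scd2 was -1.84 ± 1.1 and -5.27 ± 1.32 (edgeR, adjusted p = 0.585 and 0.0177). Of all 8064 genes tested in mRNA without the pair, 86 passed as higher and 59 as lower. In TE 0 of 10 genes passed for C1483Y with edgeR, and 0.0% of the 7072 genes tested. None of the 10 had an unadjusted p under 0.05, though 942 of all genes (13.3%) did. Of the 10, limma-voom called 0 and DESeq2 called 1 (Acaca, at -6.02). Over all 7072 genes, DESeq2 called 103 higher and 600 lower, and limma-voom 1 higher and 0 lower. The log2 differences ran from -4.11 ± 2.41 for Srebf2 to 2.13 ± 1.87 for Insig1. Without the almost identical pair Fasn (5.26 ± 1.05, edgeR adjusted p = 0.0127) and Insig1 (7.31 ± 1.51, edgeR adjusted p = 0.0145) passed. Of all 7944 genes then tested in TE, 115 passed as higher and 125 as lower.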

How the data were processed

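The deposited files hold, for 1 library each, raw read counts by gene symbol, without any normalization by the authors. Per the submitters' processing notes the tools were Bowtie 1.1.2, TopHat2 2.1.1 and HTSeq with build mm10; the sources used here do not state their order, settings or use of strand. Genes that overlap others (Acaca with Tada2a, Srebf1 with Rai1) may therefore lose or share reads. From each file, 27 lines with dates for symbols (0.089% to 0.264% of gene reads) and 5 summary lines were left out. Reads placed at more than 1 site, 22.2% to 47.5% of counted lines in RPF and 49.4% to 95.9% in mRNA, were not in gene counts. Tmem38b took 0.04% to 37.02% of RPF gene reads.

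Counts were tested with edgeR 4.0.16 in R 4.3.3 (quasi-likelihood, TMM, filterByExpr, all 9 libraries of an assay, or 18 for TE), adjusted by Benjamini-Hochberg across every gene tested, at a threshold of 0.05; limma 3.58.1 and DESeq2 1.42.0 were alternatives. All 10 genes passed the filter in each assay. The scripts were tested on simulated data with far less spread between libraries than these data had. That check therefore does not bear on missed or false calls here. The 10 genes are all named; of the other lists, genes past the threshold in RPF (up to 5 per direction by p), else the 3 with the smallest p, and the 5 genes nearest to Fasn. Some genes that this rule names are not reported here. Genes and lists were chosen with earlier results of these data known. Positions are those of GRCm38.p6.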

Additional observations from a re-analysis of the deposited data

How the results depend on the processing

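Alternatives were DESeq2, limma-voom, DESeq2 size factors in edgeR, no filter on low counts, the 2 groups alone, Tmem38b left out, a replicate block, the almost identical mRNA libraries left out, TMM over all 18 libraries (TE) and each replicate left out. Where a value turned, the cause was not tested. After Torin1 in RPF, 1 of the 10 genes was called with DESeq2, limma-voom or the 2 groups alone, against 0. Of all 10557 genes tested with the 2 groups alone, 9 passed as higher and 129 as lower. Leaving out 1 library moved the log2 value of Scap between -0.07 and 0.63. In RPF for C1483Y, 3 were called with the 2 groups alone and 4 to 7 with 1 library left out, against 6. Of all 10255 genes tested with the 2 groups alone, 802 passed as higher and 720 as lower. With 1 library left out, 436 to 1402 of all genes passed as higher and 727 to 1759 as lower, of 11380 to 11977 tested. Elovl6 then ran between -0.77 and 0.16 and Insig1 between -0.49 and 0.24. In mRNA for C1483Y, 2 were called without the almost identical pair and 0 to 2 with 1 library left out. In TE for C1483Y, 1 was called with DESeq2, 2 without that pair and 0 to 1 with 1 library left out. With 1 library left out, 6 to 95 of all genes passed as higher and 0 to 77 as lower in mRNA for C1483Y. In TE these numbers were 0 to 13 and 0 to 6. The counts over all genes without that pair, and with DESeq2 in TE, are given above.

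Signs turned as follows (log2). In mRNA after Torin1, Scd1 was -0.14 with DESeq2 and with DESeq2 size factors, Elovl6 -0.63 and Srebf1 -1.55 with limma-voom, and without the almost identical pair Scd1 was -0.77, Elovl6 -1.80 and Srebf1 -2.12. In TE after Torin1, Elovl6 was 0.05 with limma-voom, and without that pair 1.06, with Scd1 at 0.56. In mRNA for C1483Y, Srebf1 was 0.14 with DESeq2 and with its size factors and 0.07 with no filter, Acly -0.10 with no filter, Scap -2.50 with limma-voom and Elovl6 -1.88 without that pair. In TE for C1483Y, Scap was -1.31 with DESeq2 and -1.27 with its size factors, and without that pair Elovl6 was 1.76, Scd1 2.71, Scd2 1.81 and Srebf1 2.80. DESeq2 size factors moved the median of all genes to 0.985 in mRNA for C1483Y, against -0.501, and to -1.73 in TE, against 0.0584, so signs there depend on the scaling.

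With 1 library left out, ranges that crossed 0 in mRNA after Torin1 were -1.25 to 0.32 for Acly, -1.82 to 2.40 for Elovl6, -0.77 to 0.66 for Scd1 and -2.13 to 1.49 for Srebf1. In TE after Torin1 they were -0.33 to 1.09 for Acly, -0.24 to 0.87 for Fasn, -3.26 to 1.20 for Elovl6, -0.89 to 0.51 for Scd1, -0.19 to 0.66 for Scd2, -0.81 to 2.57 for Srebf1 and -0.24 to 0.90 for Insig1. In mRNA for C1483Y they were -0.23 to 1.09 for Acly, -1.91 to 1.93 for Elovl6, -6.69 to 0.84 for Srebf1 and -0.94 to 1.61 for Scap, and in TE -1.22 to 0.05 for Acly, -2.18 to 1.14 for Elovl6, -6.19 to 3.29 for Scd1, -1.99 to 1.58 for Scd2 and -6.97 to 3.38 for Srebf1. The Scd1 share difference ran from -0.634 to 2.28 points, and the Srebf1 share difference was -5.31 points in mRNA reads. Without Torin1 replicate 3 of the almost identical pair, an alternative chosen after seeing the data, the differences in mRNA reads were -12.9 points for Srebf1 and -1.02 points for Scd1, against 0.774 points for Scd1 with all libraries.

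By the labels, samples of the same number share only that number. In RPF, deviations from the group means correlated by 0.03 to 0.16 between samples of the same number and by -0.11 to 0.03 between others. In mRNA these ranges were -0.02 to 0.05 and -0.07 to 0.07. Tmem38b took 0.04%, 0.29% and 0.09% of RPF gene reads in replicate 2 of WT, C1483Y and Torin1. In replicate 1 it took 9.43%, 11.7% and 26.92%, and in replicate 3 1.22%, 37.02% and 12.85%. Whether a number stands for a shared batch was not tested. With the replicate block, 0 of the 10 genes were called in RPF after Torin1 and 5 in RPF for C1483Y. Of all 11085 genes tested, 1 passed as higher and 84 as lower after Torin1, and 660 as higher and 935 as lower for C1483Y. The block also changed the sign of Scd1 (-3.50) and Srebf1 (-1.11) in mRNA after Torin1. In TE after Torin1 it changed the sign of Scd1 (0.12), Scd2 (-0.05) and Srebf1 (-0.20).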
